A study of Mus musculus with 16 samples.

Results

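Matrix metalloproteinases (MMPs), the serine protease Htra1, the ADAMTS protease Adamts1 and the tissue inhibitors of metalloproteinases (TIMPs) were described here in mouse skeletal muscle across genotype and age. The 10 genes were taken by symbol from the deposited expression table, in which 47643 genes are listed: Htra1, Mmp2, Mmp9, Mmp14, Mmp15, Timp1, Timp2, Timp3, Timp4 and Adamts1. RNA was sequenced from tibialis anterior muscles, a muscle of the lower hindlimb, of 16 male C57BL6/J mice in 4 groups of 4, made up of WT and UBR4 mKO mice at 6 months and WT and UBR4 mKO mice at 24 months of age. Every animal was homozygous for floxed Ubr4 alleles (UBR4 fl/fl), and every animal received tamoxifen at the same age, before 6 months. UBR4 mKO mice also carried a tamoxifen-inducible Cre under the ACTA1 promoter, which is active in skeletal muscle fibres, which directs the deletion of Ubr4, a ubiquitin ligase gene, to myofibers rather than to the other cells of the muscle. WT controls lacked the Cre, and no group carried the Cre without floxed alleles. In UBR4 mKO muscles the deletion was thus induced longer before sampling at 24 than at 6 months. Age and time since the deletion cannot be told apart in UBR4 mKO muscles, also where genotype effects are compared between the ages.

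Skeletal muscle fibres lie in a basement membrane and a collagen-rich connective tissue that is turned over by secreted and membrane-bound proteases. MMPs are zinc enzymes that are made as inactive precursors, are activated by proteolysis and are blocked by TIMPs, which bind the active site. Fibroblasts, endothelial cells, leukocytes and myofibers can each express members of these families, and HTRA1 degrades extracellular proteins such as fibronectin and proteoglycans. In RNA of whole muscle, fewer cells of a type and less RNA per cell cannot be told apart.

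Expression was measured as TPM, a relative transcript abundance in which reads are divided by transcript length and every sample is scaled to a sum of 1000000, so that levels of different genes can be compared and the read depth behind a value is unknown. Ubr4 itself ranged from 4.91 to 6.54 TPM in UBR4 mKO and from 9.09 to 15.7 TPM in WT muscles at 6 months, and from 4.28 to 14.6 TPM in UBR4 mKO and from 17.0 to 21.1 TPM in WT muscles at 24 months. The highest of the old UBR4 mKO muscles, replicate 2, was below every WT muscle of its age but within the range of young WT muscles, and without it the counts of members called for genotype at 24 months and for age in UBR4 mKO muscles were 0 and 2, as with it. Myofiber markers (Acta1, Ckm and 6 others) summed to between 63032 and 71378 TPM in the young WT muscles and to between 75076 and 83593 TPM in the other 12. Mitochondrially encoded genes took 52.6% to 59.7% of the TPM in 6-month WT muscles and 46.1% to 51.7% in the other groups. The median of the 10628 genes tested was shifted by a log2 fold change of 0.33 for UBR4 mKO against WT at 6 months and by 0.26 for 24 against 6 months in WT, but by 0.013 for genotype at 24 months and by -0.043 for age in UBR4 mKO. Values are given as deposited, and a second value after median-of-ratios scaling, which centres the median gene near 0, stands beside those that depend on it.

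**Figure D1:**
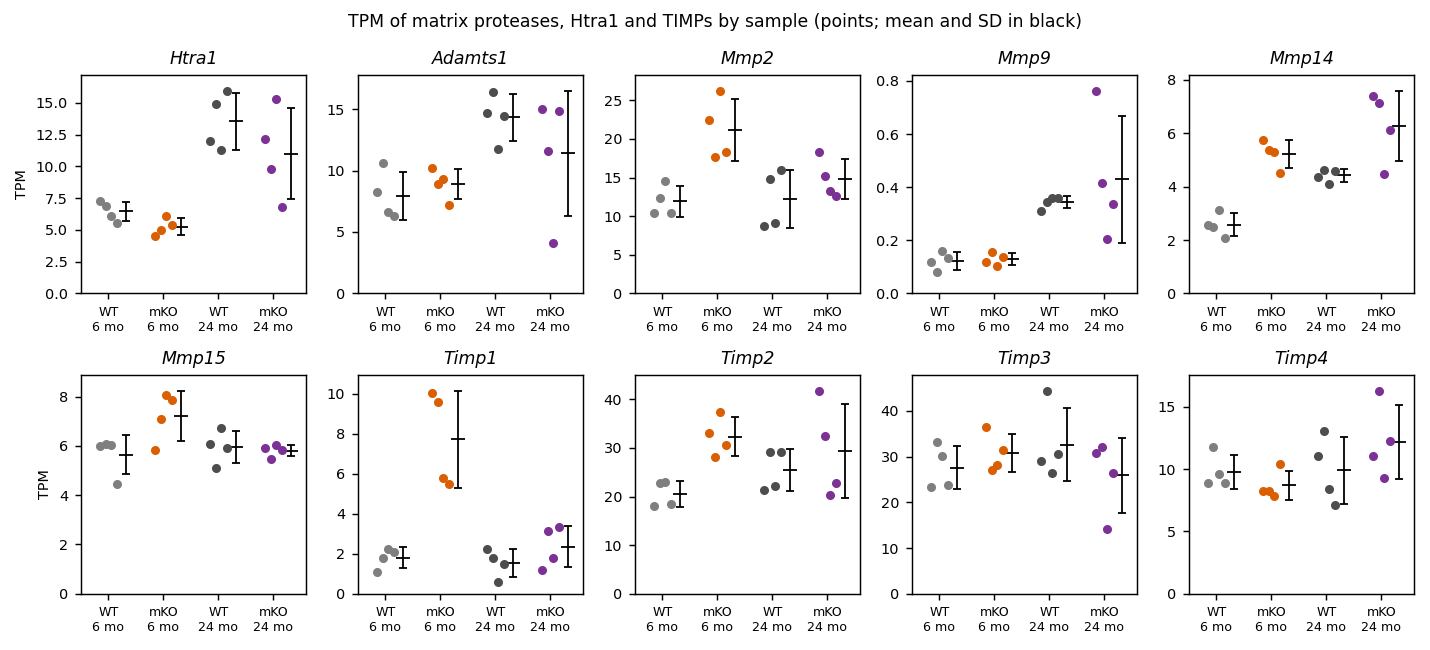
TPM (y axis, linear from 0, 1 scale per gene) of the 10 genes in the 16 muscles; each point is 1 muscle, and the black mark with its bar is the group mean with the SD (n = 4). Timp1 was between 5.51 and 10.04 TPM in the 6-month UBR4 mKO muscles and at most 3.31 TPM elsewhere, whereas Htra1 was higher at 24 than at 6 months in both genotypes.

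Timp3 and Timp2 were the most abundant of these transcripts in group means. Timp3, an inhibitor that binds to the extracellular matrix and also blocks ADAM and ADAMTS enzymes, had group means between 25.9 and 32.6 TPM, and Timp2, which also takes part in the activation of pro-MMP2 by MMP14, had group means between 20.6 and 32.3 TPM. Mmp2, the gelatinase of stromal cells, followed with group means of 11.9 to 21.2 TPM, Timp4 with 8.69 to 12.2 TPM, Adamts1 with 7.94 to 14.3 TPM, Htra1 with 5.26 to 13.5 TPM, Mmp15 with 5.64 to 7.21 TPM and Mmp14 with 2.57 to 6.27 TPM. Timp1 had group means between 1.52 and 7.72 TPM. Mmp9, the gelatinase of leukocytes, was lowest, with group means of 0.123 to 0.429 TPM, and was the 1 member under the mean of 1 TPM that the test across genes required.

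The genes lie on 9 chromosomes of the GRCm38 genome, each as a protein-coding gene. Timp1 lies on the X chromosome from 20870166 to 20874735, Htra1 on chromosome 7 from 130936111 to 130985660, Mmp14 on chromosome 14 from 54431612 to 54445364, and Adamts1 on chromosome 16 from 85793827 to 85803113 on the minus strand. Both Mmp2 (from 92827291) and Mmp15 (from 95352268) lie on chromosome 8. Timp3 shares 1733 of its 8144 exonic bases with Syn3 on the opposite strand and Timp4 shares 90 of 5894 with Syn2, also antisense. Syn3 did not exceed 0.0634 TPM and Syn2 did not exceed 0.393 TPM in any sample. Alignment of the members' transcripts to all others found 0 members with a near-identical copy.

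Promoter sequence is shown for 4 members called in the comparisons described below, Timp1 and Mmp14 (higher in young UBR4 mKO muscle) and Htra1 and Adamts1 (higher in old WT muscle). RefSeq sequence of GRCm38.p6 was matched for 8 of the 10 members, and Mmp2 and Mmp9 were not matched. The 250 bases before each RefSeq start were searched on both strands for the SP1 core GGGCGG, for the TATA box TATAAA, for the AP-1 site TGACTCA, for the E-box CACGTG and for the STAT site TTCCNGGAA. Capitals mark the SP1 core, read on either strand, and the TATA box. The windows are chrX:20869916-20870165 on the plus strand for Timp1, chr14:54431348-54431597 on the plus strand for Mmp14, chr7:130935953-130936110 on the plus strand for Htra1 and chr16:85803114-85803363 on the minus strand for Adamts1. RefSeq starts differ from the GENCODE starts given above for several members. The Timp2 window lies wholly within the annotated gene, those of Htra1, Mmp15 and Timp3 run past the GENCODE start, and that of Mmp14 ends before it. For Htra1, only the 158 bases before the GENCODE start are shown.
Timp1: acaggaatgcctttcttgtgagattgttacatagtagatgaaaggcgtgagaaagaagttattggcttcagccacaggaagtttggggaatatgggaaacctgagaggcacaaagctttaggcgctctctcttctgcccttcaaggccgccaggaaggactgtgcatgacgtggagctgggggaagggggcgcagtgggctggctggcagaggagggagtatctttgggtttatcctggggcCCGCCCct
Mmp14: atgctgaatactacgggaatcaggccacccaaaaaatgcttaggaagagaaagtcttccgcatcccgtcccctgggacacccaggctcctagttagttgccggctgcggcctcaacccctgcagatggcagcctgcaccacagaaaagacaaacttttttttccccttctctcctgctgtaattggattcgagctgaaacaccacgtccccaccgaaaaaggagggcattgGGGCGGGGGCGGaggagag
Htra1: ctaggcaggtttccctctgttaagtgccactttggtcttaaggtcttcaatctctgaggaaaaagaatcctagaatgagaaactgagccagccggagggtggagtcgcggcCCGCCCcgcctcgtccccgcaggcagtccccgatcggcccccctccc
Adamts1: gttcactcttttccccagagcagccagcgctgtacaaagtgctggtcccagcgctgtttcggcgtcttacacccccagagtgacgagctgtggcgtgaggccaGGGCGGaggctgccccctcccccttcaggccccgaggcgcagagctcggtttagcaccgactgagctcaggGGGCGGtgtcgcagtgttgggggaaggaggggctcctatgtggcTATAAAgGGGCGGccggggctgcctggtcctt
The SP1 core was found in 7 of the 8 promoters, all but that of Timp4, and in 32.7% of the 32851 promoters searched. The TATA box was found in that of Adamts1, 26 bases before the start and not overlapping the SP1 core that follows it, and in 7.59% of all promoters. The AP-1, E-box and STAT motifs were found in 0 of the 8, and in 4.46%, 6.02% and 0.913% of all promoters. The SP1 match of Mmp14 is a pair of abutting copies 13 and 7 bases before the RefSeq start, and that of Timp1 lies 2 bases before its start.

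The first comparison was of UBR4 mKO with WT muscles at 6 months. Timp1 and Mmp14 rose most, and Mmp2, Timp2 and Mmp15 also rose in TPM as deposited, whereas Htra1, Timp3, Timp4 and Adamts1 did not pass the test. Of the 9 members tested, 5 rose and 0 fell (limma, Benjamini-Hochberg adjusted p under 0.05 over 10628 genes). Among all genes tested, 44.9% were called and 43.7% were called higher. The groups did not overlap for 4 of the 9, against 39.9% of the genes tested. The median log2 fold change of the 9 members was 0.35, next to 0.33 over all genes tested, so that as a list they moved about as the median gene did. After median-of-ratios scaling, Timp1 and Mmp14 were still higher, Htra1 was lower, and 16.8% of all genes were called.

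Timp1, a secreted inhibitor of most soluble MMPs that is induced in inflammation and injury, was at 1.07, 1.80, 2.26 and 2.06 TPM in the 4 WT muscles and at 10.04, 9.58, 5.77 and 5.51 TPM in the 4 UBR4 mKO muscles. The lowest UBR4 mKO muscle was above the highest WT muscle, and the UBR4 mKO muscles fell into a higher and a lower pair. The mean (SE is the limma standard error throughout) rose from 1.80 ± 0.518 to 7.72 ± 2.42 TPM (SD, n = 4 each), 4.29 times as high, with a log2 fold change of 2.04 (limma, SE 0.37, adjusted p = 0.00084) and of 1.70 after scaling (adjusted p = 0.00765). With Dunn tests adjusted over all genes it missed the threshold (adjusted p = 0.0684). Timp1 thereby made up 9.73% ± 3.02 (SD, n = 4) of the summed TPM of the 4 TIMP genes in UBR4 mKO against 3.01% ± 0.818 in WT muscles. The summed TIMP level itself was 59.8 ± 8.76 TPM in WT and 79.5 ± 6.11 TPM in UBR4 mKO muscles at this age, as deposited. This sum depends on the scaling of the sample and was not scaled here. After scaling, the log2 fold changes of Timp2, Timp3 and Timp4 were 0.30, -0.19 and -0.52, none of them called.

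**Figure D2:**
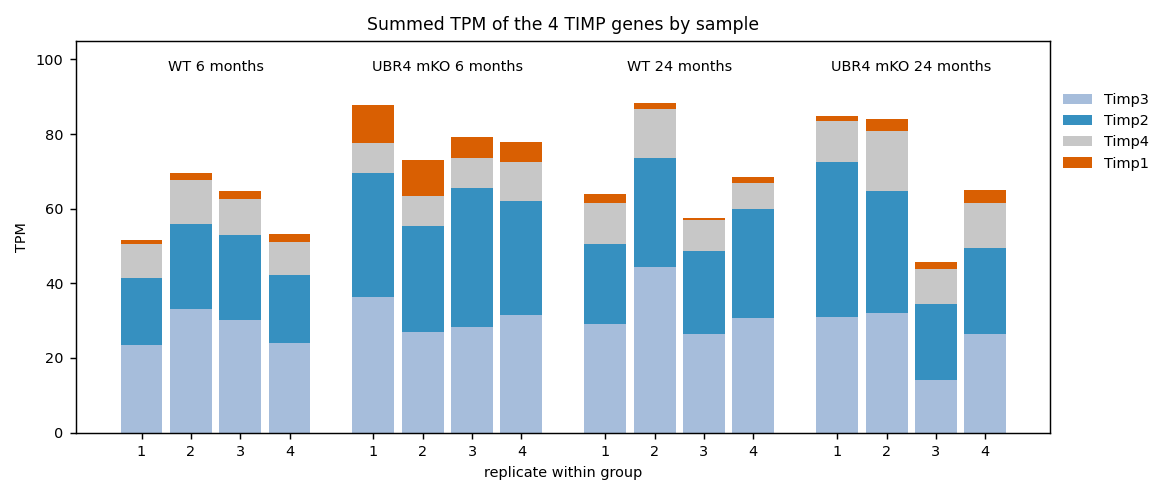
Summed TPM, as deposited, of the 4 TIMP genes in each muscle (y axis, linear from 0), stacked by gene, with the replicate number on the x axis and the group above. The Timp1 segment is widest in the 6-month UBR4 mKO muscles, where it is 7.07% to 13.1% of the bar, and is 1.02% to 5.11% in the other 12 muscles.

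Timp2 was at 18.1, 22.8, 22.9 and 18.4 TPM in WT and at 33.0, 28.2, 37.5 and 30.6 TPM in UBR4 mKO muscles at 6 months. The groups did not overlap as deposited, and the log2 fold change was 0.65 (limma, SE 0.18, adjusted p = 0.0113). After scaling it was 0.30 with overlapping groups (adjusted p = 0.245), without the mitochondrial genes it was 0.40 (adjusted p = 0.181), and Dunn tests did not call it. Timp3 ranged from 23.4 to 33.1 TPM in WT and from 27.1 to 36.4 TPM in UBR4 mKO muscles, and Timp4, the TIMP most restricted to heart, muscle and brain, from 8.87 to 11.8 TPM and from 7.87 to 10.4 TPM. Neither passed the test, with log2 fold changes of 0.16 (95% interval -0.30 to 0.62) and -0.17 (95% interval -0.56 to 0.22). The sign of the Timp3 value turns to -0.19 after scaling, and Timp4 was then at -0.52 with all UBR4 mKO muscles below all WT muscles (adjusted p = 0.0512).

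Among the proteases, Mmp14, the membrane-type MMP that activates pro-MMP2 at the cell surface, was at 2.57, 2.50, 3.12 and 2.08 TPM in WT and at 5.76, 5.37, 5.30 and 4.51 TPM in UBR4 mKO muscles at 6 months. Every UBR4 mKO muscle was above every WT muscle. The mean was 2.04 times as high, with a log2 fold change of 1.01 (limma, SE 0.15, adjusted p = 0.000218) and of 0.66 after scaling (adjusted p = 0.00319). It was the 1 member called at this age under every alternative run, with adjusted p-values from 2.97e-05 to 0.0495. Its relative Mmp15, a second membrane-type MMP, was at 5.99, 6.07, 6.05 and 4.44 TPM in WT and at 5.83, 7.08, 8.09 and 7.85 TPM in UBR4 mKO muscles. Here the groups overlapped, since UBR4 mKO replicate 1 was below 3 of the WT muscles, and WT replicate 4 was far below its group as deposited. The log2 fold change of Mmp15 was 0.35 (limma, SE 0.13, adjusted p = 0.0345), close to that of the median gene. It was 0.0016 after scaling (adjusted p = 0.995) and 0.24 without WT 6 months replicate 4 (adjusted p = 0.129).

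Mmp2 was at 10.4, 12.3, 14.6 and 10.4 TPM in WT and at 22.4, 17.7, 26.2 and 18.3 TPM in UBR4 mKO muscles. The groups were separate as deposited, with a mean 1.77 times as high and a log2 fold change of 0.82 (limma, SE 0.19, adjusted p = 0.0045). After scaling the groups overlapped and the value was 0.47 (adjusted p = 0.112). Mmp9 was at most 0.158 TPM in both groups, with a difference of 0.053 on the log2 scale (exact permutation test, two-sided, p = 0.686) that turns to -0.15 after scaling. Adamts1, which cleaves proteoglycans such as versican and aggrecan, ranged from 6.27 to 10.6 TPM in WT and from 7.23 to 10.2 TPM in UBR4 mKO muscles, with a log2 fold change of 0.19 (95% interval -0.44 to 0.81) that turns to -0.16 after scaling.

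Htra1 did not follow the median gene. It was at 7.29, 6.85, 6.11 and 5.55 TPM in WT and at 4.54, 4.99, 6.07 and 5.42 TPM in UBR4 mKO muscles at 6 months. UBR4 mKO replicate 3 lay within the WT range and the other 3 were below it. Its log2 fold change was -0.29 (limma, SE 0.19, adjusted p = 0.207) as deposited and -0.64 after scaling, where all UBR4 mKO muscles were below all WT muscles (adjusted p = 0.0472). Without the mitochondrial genes it was -0.55 (adjusted p = 0.0494). The 2 other HTRA genes tested had the opposite sign, Htra2, a mitochondrial protease, with 0.68 (adjusted p = 0.000454) and Htra3, a secreted relative of Htra1, with 0.93 (adjusted p = 0.00116), and only Htra3 was also called after scaling (0.58, adjusted p = 0.0181).

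**Figure D3:**
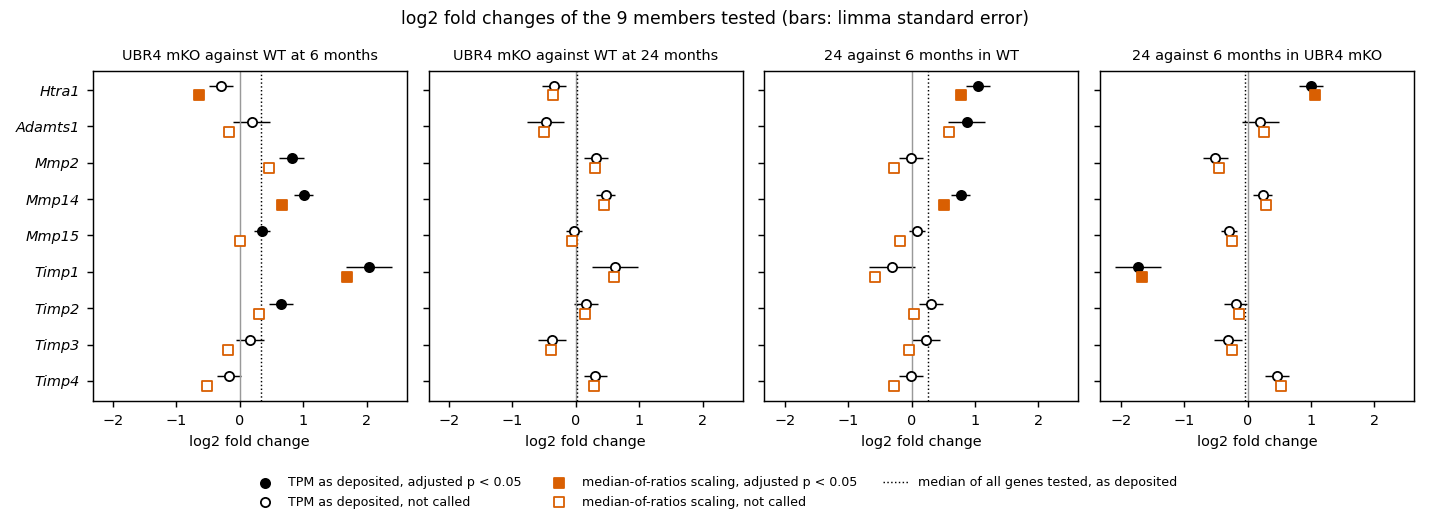
The log2 fold change (x axis) of the 9 members tested in the 4 pairwise comparisons, as deposited (circles, with the limma standard error) and after median-of-ratios scaling (squares); filled symbols have an adjusted p under 0.05, and the dotted line is the median of all genes tested. The symbols of Timp1 and Mmp14 are filled under both scalings at 6 months, those of Htra1 in both comparisons of age, and none is filled at 24 months.

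At 24 months, 0 of the 9 members were called between UBR4 mKO and WT muscles by limma, 1 had an unadjusted p under 0.05, and Kruskal-Wallis with Dunn tests gave 0 by either measure. Among all genes tested, limma called 0.630%, 10.1% had an unadjusted p under 0.05 and 5.80% had groups that did not overlap, and no member had groups that did not overlap as deposited. The member with the unadjusted p under 0.05 was Mmp14, at 4.37, 4.61, 4.12 and 4.60 TPM in WT and at 7.38, 7.12, 4.47 and 6.13 TPM in UBR4 mKO muscles. Of these, UBR4 mKO replicate 3 lay within the WT range and the other 3 above it. Its log2 fold change was 0.47 (95% interval 0.16 to 0.79, limma adjusted p = 0.213). After scaling it was 0.45 with groups that did not overlap (adjusted p = 0.130), and without UBR4 mKO 24 months replicate 3 it was 0.62 and called (adjusted p = 0.0363).

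Timp1 was no longer set apart in old UBR4 mKO muscle. It was at 2.22, 1.78, 0.585 and 1.51 TPM in WT and at 1.19, 3.15, 1.78 and 3.31 TPM in UBR4 mKO muscles at 24 months. The groups overlapped, and 2 UBR4 mKO muscles were above all WT muscles. On the log2 scale the difference was 0.62 with a wide 95% interval of -0.16 to 1.40 (adjusted p = 0.645). It was 0.25 without WT 24 months replicate 3 and 0.89 without UBR4 mKO 24 months replicate 1. Htra1 was at 11.99, 14.9, 11.3 and 15.96 TPM in WT and at 12.2, 9.78, 15.3 and 6.79 TPM in UBR4 mKO muscles. Replicates 2 and 4 of UBR4 mKO were below the WT range, and the log2 fold change of -0.34 had a 95% interval of -0.74 to 0.062. It was -0.13 without UBR4 mKO 24 months replicate 4 and -0.52 without replicate 3. The other members tested had log2 fold changes from -0.48 (Adamts1) to 0.32 (Mmp2), all with 95% intervals that included 0. Single muscles moved these values, that of Adamts1 to -0.050 without UBR4 mKO 24 months replicate 3 and that of Mmp2 to 0.18 without WT 24 months replicate 1. UBR4 mKO replicate 3 was the lowest of all 16 muscles for Adamts1, at 4.14 TPM, and for Timp3, at 14.1 TPM.

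The difference between the genotype effects of the ages was tested as an interaction. By limma, 0 of the 9 members were called against 4.70% of all genes tested, and 3 had an unadjusted p under 0.05 against 31.0% of all genes tested. Timp1 had the largest value, -1.42 on the log2 scale (95% interval -2.52 to -0.32, limma adjusted p = 0.1003), or -1.10 after scaling (adjusted p = 0.295). Without WT 24 months replicate 3, the muscle with the lowest Timp1, it was -1.79 and passed the test (adjusted p = 0.0419). The other members with an unadjusted p under 0.05 were Mmp14, at -0.54 (adjusted p = 0.115), and Mmp15, at -0.38 (adjusted p = 0.158). The median of all genes tested was itself at -0.31, and after scaling Mmp14 was at -0.22 and Mmp15 at -0.053. The interaction value of Htra1 was -0.051 (95% interval -0.62 to 0.52).

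The comparison of ages asked which of these genes differed between 6 and 24 months. In WT muscles, Htra1, Mmp14 and Adamts1 rose and 0 members fell, 3 of the 9 tested, while 25.1% of all genes tested were called and 24.0% were called higher. After scaling, Htra1 and Mmp14 remained called, with 9.77% of all genes. The groups did not overlap for these 3 members as deposited, against 25.9% of genes tested. In UBR4 mKO muscles, Htra1 rose and Timp1 fell, while 6.29% of all genes were called, 2.45% higher and 3.85% lower. Both calls were also made after scaling, with 11.3% of all genes, and in both the groups did not overlap, against 12.9% of genes tested. The comparisons of genotype and of age share samples, so their values are set side by side and no overlap between them is drawn.

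Htra1 rose with age in both genotypes. From the sample values already given, every 24-month muscle was above every 6-month muscle of its genotype, and the lowest old muscle, UBR4 mKO replicate 4 at 6.79 TPM, was within the range of young WT muscles. In WT the mean rose from 6.45 ± 0.774 to 13.5 ± 2.25 TPM (SD, n = 4 each), which is a log2 fold change of 1.05 (95% interval 0.65 to 1.45, limma adjusted p = 0.00173). In UBR4 mKO it rose from 5.26 ± 0.655 to 11.01 ± 3.61 TPM, a log2 fold change of 1.00 (95% interval 0.60 to 1.40, adjusted p = 0.00424). After scaling the values were 0.78 (adjusted p = 0.0289) and 1.06 (adjusted p = 0.00456). The difference between the genotypes is the interaction given above, -0.051 as deposited, and after scaling it was 0.28 (adjusted p = 0.640). With Dunn tests adjusted over all genes, neither rise passed (adjusted p = 0.182 and 0.383), and 0 of all genes tested passed in either comparison. Between neighbouring groups in the order of the mean, from young UBR4 mKO and young WT to old UBR4 mKO and old WT, each step overlapped (exact permutation tests, two-sided, p = 0.0571, 0.0857 and 0.314). Of the 2 other HTRA genes tested, Htra2 rose with age in WT by 0.33 (limma adjusted p = 0.0408), but not after scaling (0.058, adjusted p = 0.793). Htra3 was not called with age in WT (0.37, limma adjusted p = 0.113), and in UBR4 mKO 0 of the 2 were called.

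Mmp14 rose with age in WT muscles, where the highest young muscle was at 3.12 TPM and the lowest old muscle at 4.12 TPM. This was a log2 fold change of 0.77 (limma, SE 0.15, adjusted p = 0.00262) and 0.51 after scaling (adjusted p = 0.0235). With Dunn tests it did not pass (adjusted p = 0.279), and 0 of all genes tested passed in this comparison. In UBR4 mKO muscles, in which it was already higher at 6 months, the value was 0.24 with a 95% interval of -0.078 to 0.55. Ordered by mean, young WT was lowest and separate from old WT (two-sided exact permutation p = 0.0286, which is the lowest value possible with 4 against 4), whereas old WT, young UBR4 mKO and old UBR4 mKO each overlapped with the next.

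Adamts1 was at 8.25, 10.6, 6.62 and 6.27 TPM in young and at 14.7, 16.4, 11.8 and 14.4 TPM in old WT muscles. Every old muscle was above every young one, but the log2 fold change of 0.87 (limma, SE 0.30, adjusted p = 0.0425) lost its call in 9 of the 16 fits that left out 1 sample, among them those without replicates 1, 3 or 4 of WT at 6 months and replicates 1, 2 or 4 of WT at 24 months. It was 0.59 after scaling (adjusted p = 0.165). In UBR4 mKO muscles the value was 0.20, and without UBR4 mKO 24 months replicate 3 it was 0.63 and called (adjusted p = 0.0339).

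Timp1 fell with age in UBR4 mKO muscles, from 7.72 ± 2.42 to 2.36 ± 1.04 TPM (SD, n = 4 each), so that its level in old UBR4 mKO muscle overlapped with both WT groups. On the log2 scale the change was -1.73 (limma, SE 0.37, adjusted p = 0.0087) and -1.67 after scaling (adjusted p = 0.0121). With Dunn tests it did not pass (adjusted p = 0.422), and 0 of all genes tested passed in this comparison. In WT muscles the value was -0.31 with a 95% interval of -1.09 to 0.47. Its share of the summed TIMP level was 2.18% ± 1.01 in old WT and 3.54% ± 1.55 in old UBR4 mKO muscles (SD, n = 4 each). Young UBR4 mKO was the 1 group set apart in the order of Timp1 means (exact permutation test against the next group, two-sided, p = 0.0286).

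Mmp9 was too low for the test across genes, but its levels were separate by age. It was at 0.117, 0.0796, 0.158 and 0.135 TPM in young and at 0.311, 0.345, 0.360 and 0.361 TPM in old WT muscles, and at 0.119, 0.158, 0.104 and 0.138 TPM in young and 0.763, 0.414, 0.205 and 0.335 TPM in old UBR4 mKO muscles. All old muscles were above all young ones, and UBR4 mKO 24 months replicate 1 was the highest of the 16. The differences were 1.01 in WT and 1.11 in UBR4 mKO on the log2(TPM + 0.1) scale (two-sided exact permutation p = 0.0286 each, again the lowest possible). When all listed genes were fitted without the filter, the limma adjusted p-values were 0.0171 and 0.0170. At these levels the pseudocount weighs heavily, and with 1 in place of 0.1 the differences were 0.26 and 0.33.

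Mmp2, Mmp15, Timp2, Timp3 and Timp4 were not called with age in either genotype. Their log2 fold changes were between -0.013 and 0.30 in WT and between -0.51 (Mmp2) and 0.46 (Timp4) in UBR4 mKO muscles. After scaling those in WT were between -0.28 and 0.029. The values of Mmp2, Mmp15 and Timp4 in UBR4 mKO had an unadjusted p under 0.05, with limma adjusted p-values of 0.147, 0.198 and 0.162.

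Protease and inhibitor were also set against each other as ratios of TPM within a sample, which do not depend on the scaling of the sample. These 4 ratios were chosen after the values had been seen, and 16 comparisons were made. The summed TPM of the 4 MMPs was 0.341 ± 0.0350 of that of the 4 TIMPs in young WT and 0.425 ± 0.0518 in young UBR4 mKO muscles (SD, n = 4 each), with groups that did not overlap (exact permutation test, two-sided, p = 0.0286, adjusted over the 16 comparisons p = 0.114). Mmp14 relative to Timp2 was 0.125 ± 0.0161 in young and 0.176 ± 0.0227 in old WT muscles, and Htra1 relative to Timp3 was 0.238 ± 0.0505 and 0.424 ± 0.0758, with the same p-values. In UBR4 mKO muscles Htra1 relative to Timp3 was 0.174 ± 0.0379 at 6 and 0.510 ± 0.387 at 24 months, again with groups that did not overlap and an adjusted p of 0.114. The old mean rests on replicate 3, at 1.084, and without it was 0.319 ± 0.0699 (SD, n = 3), still with groups that did not overlap. The smallest p that 4 against 4 samples allow is 0.0286, and none of the 16 comparisons passed 0.05 after adjustment.

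Related genes were examined as lists. Of 17 other MMPs, 2 were tested. Mmp11, a stromal MMP, was higher in young UBR4 mKO than in young WT muscles, by 0.99 (limma adjusted p = 0.00155), and higher with age in WT by 0.56 (adjusted p = 0.0478), the latter not after scaling (0.31, adjusted p = 0.272). Mmp13, a collagenase, moved with age in the direction opposite to Htra1. It was at 1.23, 2.26, 2.61 and 3.41 TPM in young and at 0.309, 0.0508, 0.194 and 0.704 TPM in old WT muscles, and it went from 1.76 ± 0.482 to 0.143 ± 0.0434 TPM (SD, n = 4 each) in UBR4 mKO muscles. Old and young groups did not overlap in either genotype, with log2 fold changes of -2.75 (adjusted p = 0.000291) and -2.92 (adjusted p = 0.000306). Mmp13 reached the mean of 1 TPM only through the young groups, so that a gene with its levels could enter the test only by differing with age.

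Of 23 other ADAMTS and ADAMTS-like genes, 7 were tested. At 6 months UBR4 mKO muscles had 4 of them higher and 1 lower, and after scaling 1 was higher and 1 lower. Of all genes tested at 6 months, 43.7% were higher and 1.15% lower as deposited, and 6.66% were higher and 10.2% lower after scaling, so that 4 of 7 is close to the share of all genes. Adamts8 was the lower one, with -1.13 (limma adjusted p = 0.00896), and among the higher ones were Adamts9, with 0.95 and overlapping groups (adjusted p = 0.0421), and Adamts5, an aggrecan-cleaving enzyme, with 0.92 (adjusted p = 0.00625). Neither passed after scaling (adjusted p = 0.246 and 0.0745), and the one that did was Adamts10 (0.75 as deposited and 0.41 after scaling, adjusted p = 0.0216), which was named here after its values were seen. Adamts8 also fell with age in WT muscles, from 4.09 ± 1.51 to 1.12 ± 0.578 TPM (SD, n = 4 each), which is a log2 fold change of -1.79 (adjusted p = 0.00103). Adamtsl4 fell by 0.76 in WT (adjusted p = 0.0439). After scaling, Adamtsl5 (-0.56, adjusted p = 0.00246) and Adamts10 (-0.43, adjusted p = 0.0281) were also lower with age in WT, which made 4 of 7 lower against 2 as deposited, beside 5.33% and 1.07% of all genes tested. Adamts10 fell by 0.79 in UBR4 mKO muscles with age (adjusted p = 0.00416).

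The plasminogen system, which can activate MMPs, had 3 of 6 genes tested, and 2 were higher and 1 lower in young UBR4 mKO than in young WT muscles, beside 43.7% and 1.15% of all genes tested. Plau, the urokinase gene, was at 0.91 (limma adjusted p = 0.00387), Plat, the tissue-type activator, at 0.56 (adjusted p = 0.0153) and Serpine2, an inhibitor of thrombin and plasminogen activators, at -0.39 (adjusted p = 0.00402). After scaling 0 were higher, and Serpine2 was lower (-0.75, adjusted p = 0.000195). Plau rose with age in WT by 1.01 (adjusted p = 0.0045) and in UBR4 mKO by 0.77 (adjusted p = 0.0395), and both calls were made after scaling. Serpine2 rose with age in UBR4 mKO muscles by 0.45 (adjusted p = 0.00707). Of 6 other inhibitors and activators, 3 were tested, and the 1 called as deposited was Furin, a convertase that activates membrane-type MMPs, with 0.52 for age in WT (adjusted p = 0.0197) and 0.25 after scaling (adjusted p = 0.0762). With age in UBR4 mKO muscles Furin was at 0.27 (adjusted p = 0.316) and was called after scaling (0.33, adjusted p = 0.0214).

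Of 9 genes for matrix substrates, 7 were tested. Bgn (biglycan), Nid1 and Nid2 (nidogens of the basement membrane) were higher in young UBR4 mKO muscles, by 0.91, 0.89 and 0.78 (limma adjusted p = 0.00487, 0.00644 and 0.00779), and 0 were called after scaling. This count of 3 of 7 is near the share of all genes tested that were higher, 43.7%. Efemp1, which encodes fibulin-3, a substrate of HTRA1, was at 1.56 ± 0.283 TPM in young and 3.61 ± 1.15 TPM in old WT muscles and at 1.85 ± 0.524 and 5.94 ± 1.87 TPM in young and old UBR4 mKO muscles (SD, n = 4 each). It rose with age by 1.12 in WT (adjusted p = 0.00493) and by 1.62 in UBR4 mKO (adjusted p = 0.000554), also after scaling. Fn1, the fibronectin gene, was at -0.75 with age in WT as deposited (adjusted p = 0.0889) and fell after scaling (-1.01, adjusted p = 0.0494). In each of these lists, limma called 0 genes for genotype at 24 months and 0 for the interaction, with 8 and 6 of the 24 genes tested at an unadjusted p under 0.05, beside 10.1% and 31.0% of all genes tested. At 24 months Adamts5 and Htra3 were at 0.95 and 0.75 (adjusted p = 0.0831 and 0.0626), and after scaling Htra3 (0.73, adjusted p = 0.0377) and Adamtsl5 (0.45, adjusted p = 0.0424) were called. For the interaction, Serpine2 was called after scaling (0.71, adjusted p = 0.0151).

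**Figure D4:**
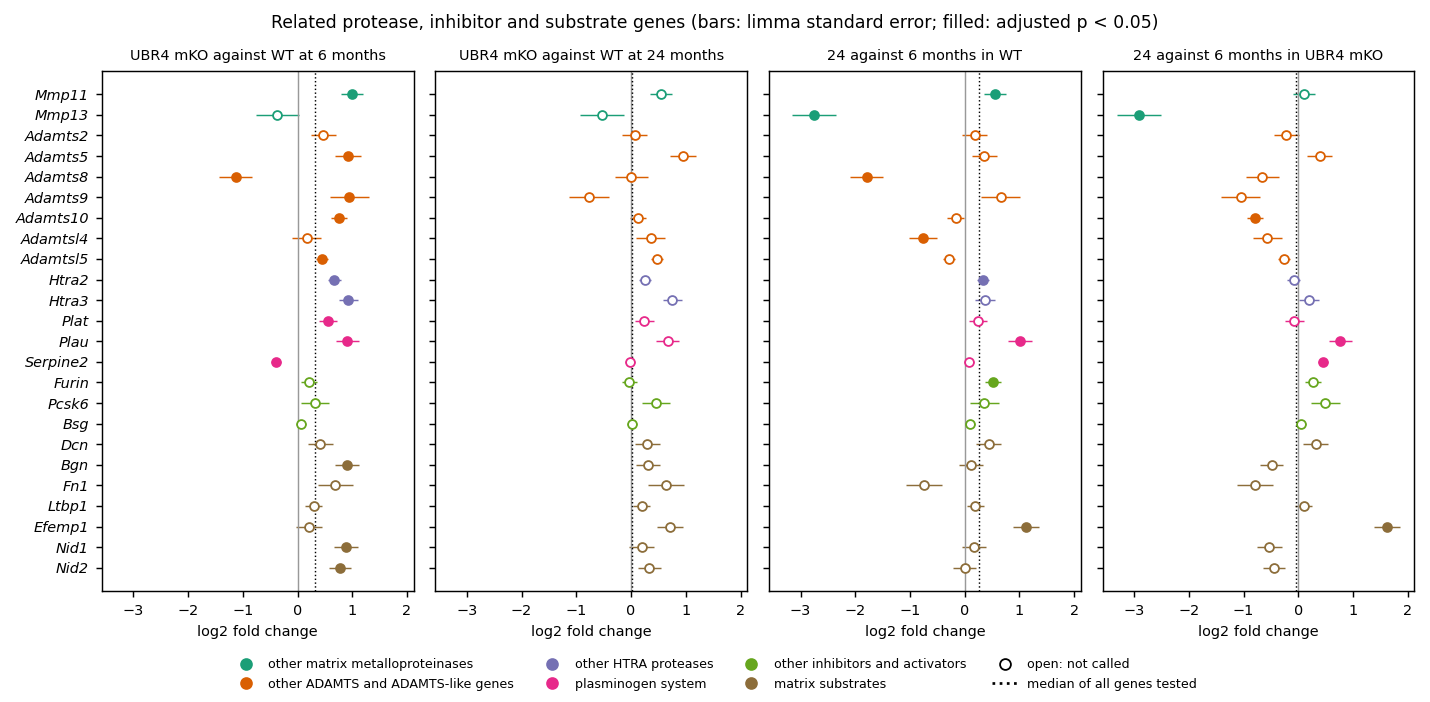
The log2 fold change (x axis) with its limma standard error for the related genes tested, coloured by list, in the 4 pairwise comparisons; filled points have an adjusted p under 0.05 and the dotted line is the median of all genes tested. Mmp13 is the farthest below 0 in both comparisons of age, at -2.75 and -2.92, and no point is filled at 24 months.

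Several cell type markers moved with these results. Between young WT and young UBR4 mKO muscles, the summed TPM of 7 leukocyte markers ranged from 2.76 to 4.84 and from 9.31 to 29.7, and the 5 markers tested were higher. Adgre1 and Cd14 averaged 0.547 and 0.911 TPM over WT muscles and passed the mean of 1 TPM only through UBR4 mKO muscles, so that the filter in part fixed this count. Of 8 fibroblast markers 5 were higher, with sums of 54.7 to 166 against 117 to 236 TPM, and of 8 endothelial markers 6 were higher, with sums of 107 to 140 against 173 to 180 TPM. After scaling, 3 leukocyte markers, 1 fibroblast marker and 0 endothelial markers were higher. Of 8 myofiber markers 3 were higher, and after scaling 1 was higher and 2 were lower. Since 43.7% of all genes tested were higher as deposited, and 6.66% higher and 10.2% lower after scaling, the fibroblast and myofiber counts are near the share of all genes. Satellite cell markers summed to 2.02 to 2.90 against 4.00 to 4.85 TPM, and the 1 tested was not called. The part of these cell types in the rise of Timp1, Mmp14 and Mmp2 was not tested. With age in WT muscles, both neutrophil markers tested were higher, 1 of them after scaling, with sums of 3.21 to 5.23 against 9.57 to 23.2 TPM, while Mpo and Elane were listed at 0 in both groups. The 8 myofiber markers were all called as deposited, 5 higher (among them Myh4, by 0.69) and 3 lower (Myh1, Myh2 and Mb), and after scaling Myh4 was higher and the same 3 were lower. Endothelial and mural cell markers were not called as deposited, whereas after scaling 5 of 8 and 2 of 7 were lower. Of all genes tested, 24.0% were higher and 1.07% lower as deposited, and 4.44% were higher and 5.33% lower after scaling. Of 5 leukocyte markers tested 1 was also higher, Cd68, by 2.02 (limma adjusted p = 0.00492). Of 8 fibroblast markers 2 were lower, Col1a1 and Col1a2, with log2 fold changes of -1.91 and -1.53. Not called were Pdgfra (0.58), Dpt (0.26), Lum (0.17), Mfap5 (0.096), Pi16 (-0.28) and Col3a1 (-0.56). Every old muscle was above every young one for Pdgfra. With age in UBR4 mKO muscles, 3 of 8 fibroblast, 4 of 8 endothelial and 3 of 5 tendon markers tested were lower, beside 3.85% of all genes tested, 2 of 8 myofiber markers were higher and 3 lower, and 0 of 5 leukocyte markers were called, with sums of 9.88 to 35.9 TPM at 24 months. Adipocyte markers summed to 2.01 to 3.71 TPM at 6 and 2.65 to 20.4 TPM at 24 months. Of the 2 tested, 0 were called as deposited and 1 after scaling (Cidec, 1.55, limma adjusted p = 0.0499). The part of these in the values of Mmp9, Mmp14 and Timp1 with age was not tested.

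**Figure D5:**
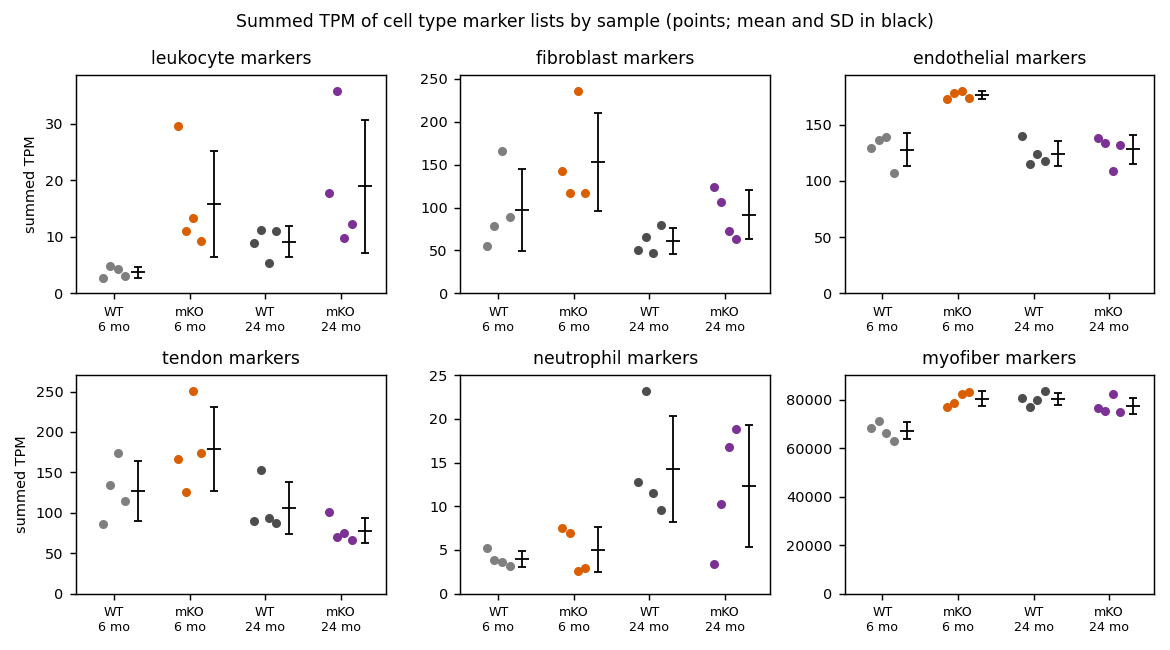
Summed TPM (y axis, linear from 0) of 6 cell type marker lists in each muscle, with the group mean and SD (n = 4) in black. Leukocyte marker sums were lowest in young WT muscles, at 2.76 to 4.84 TPM, and neutrophil marker sums were at most 7.48 TPM in all young muscles.

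The genes with the most similar pattern to each member were found by Pearson correlation over the 16 samples after scaling, as a description in which the points share the 4 groups. For Mmp2 they were Ctsk, Bgn and Col6a2 (r = 0.92 each), for Mmp14 they were Evi2a, Laptm5 and Cd68 (r = 0.91, 0.91 and 0.90) and for Timp2 they were Adamts2, Glis2 and Fstl1 (r = 0.88 each). Those of Htra1 were Prr13, Fez2 and Gpx3 (r = 0.94, 0.94 and 0.93), and those of Timp1 were Itpripl1, Uck2 and Acot9 (r = 0.89, 0.88 and 0.88). For Adamts1 they were Pcnx, Esyt2 and Kif21a, for Timp3 Zdhhc23, Ppara and Lats2, for Mmp15 Mpv17, Cnnm4 and Tfam (all r between 0.84 and 0.92), and for Timp4, with the lowest values, Lpin1, Asb11 and Dnajb9 (r = 0.81, 0.78 and 0.77). Between members, the highest of the 36 values was that of Mmp2 with Timp2 (r = 0.79) and the lowest that of Htra1 with Timp1 (r = -0.77).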

How the data were processed

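Per the labels, libraries came from total RNA of tibialis anterior muscles. The authors trimmed and filtered paired-end reads, aligned them to GRCm38 (mm10) in CLC Genomics Workbench and deposited TPM. The labels name a stranded TruSeq kit and the study's methods an unstranded one, so use of strand is not settled. No column was left unmapped. The members and gene lists were chosen with earlier results of these data known.

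Values were transformed as log2(TPM + 0.1). The 10628 genes with a mean of at least 1 TPM were fitted with limma 3.58.1 (R 4.3.3), with 1 coefficient per group and a variance trend, and p-values were Benjamini-Hochberg adjusted over these genes (threshold 0.05). Fold changes on this scale understate those of low genes. Single values were compared by exact two-sided permutation tests over the 70 assignments of 4 against 4 samples. Kruskal-Wallis with Dunn tests, which the study's methods name for 3 replicates per group, was run as an alternative on all 4 per group with adjustment over all genes. Other alternatives were a pseudocount of 1, no filter, median-of-ratios scaling, TPM without mitochondrial genes, a replicate block, fits of 2 groups and leaving out each sample. On simulated data for the comparison at 6 months (10628 genes), the fit called 98.5% of 200 genes changed by 1.5 on the log2 scale, and 2.96% of its calls were unchanged genes. From each list of related genes, up to 3 called genes with the largest fold change were named per comparison. The result of 1 gene of these lists is not reported here. Positions are from GENCODE vM21, transcripts were aligned with minimap2 2.31, and plots were made in Python 3.11.15 with matplotlib 3.10.9. Separate samples are separate mice per the study's methods, in which pairing by number is not stated.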

Additional observations from a re-analysis of the deposited data

Results flagged for a closer look

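As deposited, Mmp15 in WT 6 months replicate 4, at 4.44 TPM, lay far below the other 3 young WT muscles, between 5.99 and 6.07 TPM. The gap was 0.959 of the group's range, above Dixon's critical value for 4 samples. Among the 40 groups of 4 examined for the 10 members, 1 was set apart in this way, and chance gives about 2. The same muscle had the largest mitochondrial share, 59.7%, and the lowest scale factor, 0.715, of the 16 samples. The other 3 young WT muscles had factors of 0.860, 1.00 and 0.854, and scaling divides TPM by the factor. The part of these in its Mmp15 value was not tested. Without it, Mmp15 was not called at 6 months (log2 fold change 0.24), and the call was lost in 4 of the 16 fits that left out 1 sample, the other 3 being those without UBR4 mKO 6 months replicates 2, 3 or 4.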

How the results depend on the processing

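Alternatives other than leaving out a sample kept direction and side of the threshold for 277 values, 19 lost the call, 2 gained it, 9 turned sign and 2 moved, with Mmp9, which has no test across genes here, counted by the size of its move and not by its sign. Members called at 6 months went from 5 to 3 with median-of-ratios scaling, 3 without mitochondrial genes and 2 with Dunn tests, and all genes called from 4767 to 1790, 1586 and 2485. At 24 months all genes called went from 67 to 43 without a filter, 8 in fits of 2 groups and 0 with Dunn tests. For age in WT, Dunn tests called 0 members and 0 genes, scaling 1038 and mitochondrial removal 1051 genes, against 2669. For age in UBR4 mKO, Dunn tests called 0 members and 0 genes, scaling 1197 and fits of 2 groups 439, against 669. For the interaction, genes called went from 500 to 299 without a filter, 211 with scaling and 214 without mitochondrial genes. It could not be run with Dunn tests or fits of 2 groups.

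Signs turned with scaling and without mitochondrial genes for Timp3 (-0.19 and -0.094), Adamts1 (-0.16 and -0.066) and Mmp9 (-0.15 and -0.12) at 6 months, Mmp15 with age in WT (-0.19 and -0.11) and the Htra1 interaction (0.28 and 0.16), and with scaling for Timp3 with age in WT (-0.047). The causes were not tested.

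Across genes, the deviations of same-numbered samples from their group means had correlations of -0.15 to 0.18. This cannot show whether the replicate numbers pair the samples. With the replicate block, all genes called were 38 at 24 months and 284 for the interaction, and no count of members changed by over 1.5 times.

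Leaving out 1 sample, members called ranged from 4 to 5 at 6 months, 0 to 1 at 24 months, 2 to 3 with age in each genotype and 0 to 1 for the interaction. All genes called ranged from 2737 (without WT 6 months replicate 4) to 6239 (without WT 6 months replicate 2) at 6 months, 8 (without WT 24 months replicate 3) to 66 at 24 months, 974 (without WT 6 months replicate 4) to 4973 (without WT 6 months replicate 2) with age in WT, 374 (without UBR4 mKO 6 months replicate 3) to 774 with age in UBR4 mKO, and 187 (without WT 24 months replicate 1) to 2491 (without WT 6 months replicate 2) for the interaction. Signs turned within the ranges of Mmp15 (-0.10 to 0.028), Timp2 (-0.027 to 0.32) and Mmp9 (-0.12 to 0.38) at 24 months, Mmp9 (-0.046 to 0.13) at 6 months, Mmp2 (-0.16 to 0.13), Mmp15 (-0.024 to 0.15), Timp1 (-0.53 to 0.061) and Timp4 (-0.16 to 0.13) with age in WT, and Htra1 (-0.23 to 0.16) for the interaction. TPM keeps no read depth, so counting error is unknown.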
